A study of Mus musculus with 67 samples.

Results

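The regulatory elements around Gli1, Gli2 and Gli3 were followed in mouse embryonic stem cells as they passed through neuromesodermal progenitors (NMPs) to ventral neural progenitors (NPs). An element is a region of open chromatin called from ATAC-seq, in which the transposase Tn5 cuts accessible DNA. Members were the elements whose nearest annotated gene start belonged to Gli1, Gli2 or Gli3, which gave 48 of the 111638 elements with values. Gli1 had 1 element, Gli2 had 19 and Gli3 had 28, and another 4 that appear in the annotation alone were not used here. The nearest gene start is a label of position, and no measurement here ties an element to a gene's expression.

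All cells came from the HM1 mouse embryonic stem cell line, so cell line and genotype did not differ between groups. NPs were made in the same medium with retinoic acid, and SAG, an agonist of Smoothened that switches on the Sonic Hedgehog pathway, was added at 0, 10, 100 or 500 nM from day 3. Cells were fixed and sorted by intracellular staining into NMPs at day 3 without SAG and into 4 NP types at days 4, 5 and 6. From dorsal to ventral the NP types were p0-1 (0 and 10 nM), p2 (10 and 100 nM), pMN and p3 (each 100 and 500 nM). Because p0-1 shares no SAG concentration with pMN or p3, type and SAG cannot be told apart in those comparisons. The gates were the transcription factors that define each domain, so a sorted type is a gate on protein level in cells of 1 line. There were 67 libraries in 25 conditions, 17 conditions with 3 libraries and 8 with 2, and 9298160 to 29985325 reads fell in elements per library (median 20254011). Replicates were separate differentiations, so p-values of comparisons with 1 SAG concentration per group measure the spread between these cultures. Comparisons pooled over SAG had up to 6 libraries per group from 3 replicate numbers. Their p-values treat libraries that share a number as separate, and mix the spread between SAG concentrations with that between cultures. In bulk sorted populations, more cells with an open element and a more open element in each cell cannot be told apart.

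GLI1, GLI2 and GLI3 are the zinc finger transcription factors at the end of the Hedgehog pathway. Without ligand GLI3 is processed to a repressor, with ligand GLI2 acts as the main activator, and Gli1 is itself a transcriptional target of the pathway. In the neural tube, graded Hedgehog signalling sets the order of ventral progenitor domains, and Gli3 limits the ventral types.

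The genes lie on 3 chromosomes of the mouse GRCm38 (mm10) build: Gli1 at chr10:127329882-127341974 on the minus strand, Gli2 at chr1:118834132-119053619 on the minus strand and Gli3 at chr13:15463235-15730026 on the plus strand. Elements are named below by the distance in kb of their centre from the gene start. The element at Gli1, Gli1 +1 kb, spans chr10:127338779-127342705. It covers the gene start, and its centre is in intron 2. The sequences of 5 elements that the results turn on are given here, on the plus strand of GRCm38 and 5′ to 3′. Capitals mark CCACCCA, the core of the GLI motif, in the windows of Gli1 +1 kb and of Gli2 +20 kb, and ACAAAG or its complement CTTTGT, a SOX-type motif, in Gli3 -356 kb. Gli3 +140 kb and the element 140 kb inside Gli2 hold none of the motifs searched in their central 300 bp and have no capitals.
Gli1 +1 kb (chr10:127340002-127340101): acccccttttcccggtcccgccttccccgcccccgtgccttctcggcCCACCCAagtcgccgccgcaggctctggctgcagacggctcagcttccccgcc
Gli1 +1 kb (chr10:127340940-127341039): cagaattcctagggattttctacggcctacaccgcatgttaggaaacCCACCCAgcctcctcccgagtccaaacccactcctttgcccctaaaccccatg
Gli2 +20 kb (chr1:119033676-119033775): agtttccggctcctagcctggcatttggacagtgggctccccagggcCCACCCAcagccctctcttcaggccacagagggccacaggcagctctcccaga
Gli2 body +140 kb (chr1:118913833-118914132): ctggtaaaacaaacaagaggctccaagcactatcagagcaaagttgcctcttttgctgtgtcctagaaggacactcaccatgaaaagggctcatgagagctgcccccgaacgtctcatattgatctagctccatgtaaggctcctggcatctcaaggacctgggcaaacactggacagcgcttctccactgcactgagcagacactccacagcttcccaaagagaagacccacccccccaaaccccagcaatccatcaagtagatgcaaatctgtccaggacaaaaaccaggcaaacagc
Gli3 -356 kb (chr13:15108000-15108299): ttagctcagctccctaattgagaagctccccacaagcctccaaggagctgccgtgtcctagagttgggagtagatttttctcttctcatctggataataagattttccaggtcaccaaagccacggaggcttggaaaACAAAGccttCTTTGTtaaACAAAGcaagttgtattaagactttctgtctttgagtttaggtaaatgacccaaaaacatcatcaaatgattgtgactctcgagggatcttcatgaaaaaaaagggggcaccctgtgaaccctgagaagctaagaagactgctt
Gli3 +140 kb (chr13:15603396-15603695): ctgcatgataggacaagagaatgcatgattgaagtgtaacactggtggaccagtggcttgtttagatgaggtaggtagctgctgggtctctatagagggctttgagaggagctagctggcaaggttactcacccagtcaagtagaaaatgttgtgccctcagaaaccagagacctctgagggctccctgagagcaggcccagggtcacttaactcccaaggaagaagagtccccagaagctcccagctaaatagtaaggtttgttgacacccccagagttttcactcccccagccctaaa

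The GLI motif GACCACCCA, searched on both strands in the central 300 bp, was in 0 of the 48 members and in 0.393% of all elements. Its core CCACCCA, which lies inside that motif, was in 1 of 48 members, Gli2 -30 kb, against 7.76% of all elements. Over whole elements the core was in 10 of 48 members against 24.6% of all, with 3 copies in Gli1 +1 kb. FOX motifs TGTTTAC or TATTTAC were in 3 of 48 centres against 8.51% of all, and the SOX motif ACAATG in 7 of 48 against 21.1%. The second SOX motif, ACAAAG, was chosen after the sequences were seen and was in 20 of 48 members against 31.1% of all. Gli3 -356 kb held 3 copies in its centre, and 1.09% of all elements held 3 or more. These letters describe the windows and show no binding.

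Of the 48 members, 21 exceeded a mean of 100 normalized counts (reads in an element divided by the library's size factor) in at least 1 condition: the 1 of Gli1, 9 of Gli2 and 11 of Gli3. The other 27 reached 26.3 to 89.7 in their highest condition, with a median of 55.1. Of these 27, 10 were highest in a p3 condition, 6 in NMPs, 6 in p0-1 and 5 in pMN. Comparisons were made with limma on the variance-stabilized log2 values over all elements with a mean above 100 in the libraries compared. A low level in 1 group can be carried past that filter by the other group, and the gap between them is then in part set by the filter. An element was called when its Benjamini-Hochberg adjusted p was below 0.01 and its mean normalized count differed by more than 2-fold, and "rose" and "fell" are used of called elements. Differences are on the variance-stabilized log2 scale with their standard error (SE). Where groups are said not to overlap, this describes their few libraries, and its share over all elements was not computed. By these rules 19 members could be tested in at least 1 comparison of 2 groups and 15 were called in at least 1, while 29 entered none.

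Of the marker genes fixed for the types, some were most accessible in their own type and others were not. Summed over the elements annotated to Olig2, the pMN factor, mean normalized counts at day 6 were 10891 in pMN, 6104 in p2, 4052 in p0-1 and 3697 in p3. Those of Foxa2 were 13109 in p3 against 3533 to 3932 in the other NPs, those of Dbx1 were 6255 in p0-1 against 1462 to 2308, and those of the p2 gene Foxn4 were 2492 in p2 against 779 to 1782. Cdx2 elements summed to 5425 in NMPs and 510 to 1567 in the NP types over days. Of the other NMP genes, T had 3590 and 1073 to 1441, and Fgf8 had 891 and 229 to 421. Tbx6 did not set NMPs apart, with 778 in NMPs and 522 to 857 in the NP types. The NP marker Sox1 had 5332 in NMPs, 5058 in p3 at day 6 and 7177 to 9016 in the other NPs at day 6. Pax6 had 3215 in NMPs and 3693 to 10459 in NPs at day 6. Irx3 and Nkx2-9 did not set their type apart at day 6, where Irx3 had 14479 in p2 and 14993 in p0-1, and Nkx2-9 had 2927 in p3 and 3007 in pMN. The p3 factor Nkx2-2 had 0 elements among those summed here and so was not analysed. All 3 floor plate genes examined (Shh, Slit1 and Ntn1) had elements, and their summed counts were 18273 to 21469 in the 4 p3 libraries at day 6 and 10398 to 14106 in pMN. Shh elements summed to 3693 in p3 and 1178 in pMN, and Ntn1 elements to 6428 and 5704. The part of floor plate cells in the p3 results was not tested.

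In p0-1, Gli1 accessibility was higher with SAG. At day 5 the 3 libraries without SAG had 937, 1011 and 970 normalized counts at Gli1 +1 kb, and the 3 libraries at 10 nM had 2188, 2107 and 2424. The groups did not overlap, and the element rose by 1.19 ± 0.0705 (SE), 2.30-fold, with an adjusted p of 0.00751 by limma. It was the single element called of 31401 tested in that comparison, or 0.00318%, and 1 of the 12 members tested. The call was lost when any 1 of the 6 libraries was left out, with differences of 1.13 to 1.23 and adjusted p of 0.0155 to 0.179.

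Day 4 and day 6 gave differences in p0-1 of a like size and larger spread. At day 4 Gli1 +1 kb had 926, 1049 and 1213 normalized counts without SAG and 2050, 1999 and 3535 at 10 nM. These groups did not overlap, but the difference of 1.197 ± 0.240 (SE) had an adjusted p of 0.713 (limma). At days 4 and 5 the replicate numbers of the p0-1 libraries paired them. Blocked on replicate number, the day 4 difference had an SE of 0.185 and an adjusted p of 5.38e-08, and Gli1 was then called along with 0.643% of elements (189 of 29373). The block also took the day 5 calls from 1 to 317 elements, Gli1 among them (adjusted p = 4.11e-07, limma). At day 6 the libraries without SAG had 1211 and 1655 and those at 10 nM had 2548, 3202 and 2571, again without overlap, and the difference was 0.96 ± 0.170 (adjusted p = 0.0594, limma). The response was not shown to change between days 4 and 6, with a difference of -0.24 ± 0.329 (adjusted p = 0.993, limma). In that test 0 of 13 members and 0% of all elements were called, and voom called 0 members. An unadjusted p below 0.05 came in 2 members and in 2888 of all 30684 elements tested.

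**Figure D1:**
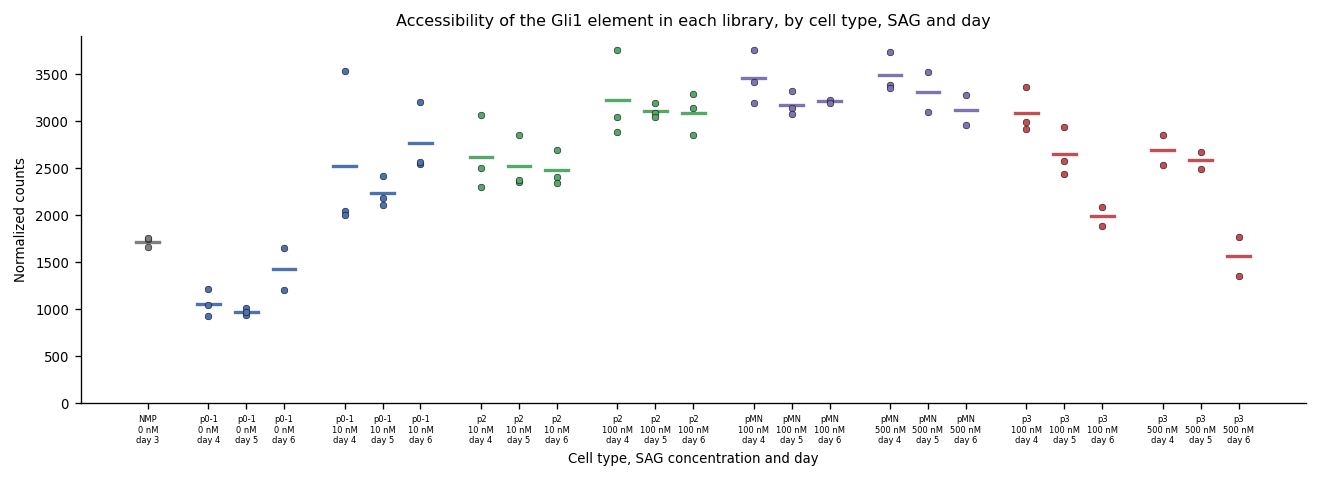
Normalized counts at Gli1 +1 kb on the y axis for each cell type, SAG concentration in nM and day on the x axis, with 1 point per library and a bar at the condition mean. The p0-1 libraries without SAG sit between 926 and 1655, the pMN libraries between 2959 and 3762, and the p3 libraries at day 6 between 1356 and 2092.

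In the other NP types the SAG concentrations compared made smaller differences at Gli1. In p2 the means at 10 nM were 2625, 2527 and 2483 at days 4, 5 and 6, and those at 100 nM were 3230, 3110 and 3094. The differences of 0.30, 0.30 and 0.32 had adjusted p of 1.00, 0.310 and 0.383 (limma), and with the replicate block, whose pairing held in p2, 39, 522 and 0 elements were called with no member among them. In pMN the 100 to 500 nM differences were 0.02, 0.06 and -0.05, and in p3 they were -0.20, -0.03 and -0.36, none of them called. Across all 12 SAG comparisons Gli1 at day 5 in p0-1 was the 1 call. In each of the other 11 comparisons 0 of 9 to 14 members were called, against a background of 0% of all elements. An unadjusted p below 0.05 came in 0 to 4 members. Over all elements tested it came in 153 of 31179 (p3, day 5) to 5715 of 31156 (p0-1, day 6). Neither voom nor these fits called any member of Gli2 or Gli3 with SAG.

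Pooled over SAG, the mean Gli1 levels of the types came in a different order at days 4 and 6. At day 4 the means were 3474 ± 226 (SD, n = 6) in pMN, 2933 ± 296 (n = 5) in p3, 2927 ± 507 (n = 6) in p2 and 1795 ± 978 (n = 6) in p0-1. At day 6 they were 3168 ± 143 (n = 4) in pMN, 2789 ± 380 (n = 6) in p2, 2238 ± 796 (n = 5) in p0-1 and 1777 ± 310 (n = 4) in p3. For the NP types n counts libraries of both SAG concentrations, not separate differentiations. NMPs had 1665, 1744 and 1756. In both orders each type overlapped its neighbour in its libraries. The place of p0-1 depended on SAG: at day 6 its mean was 1433 (n = 2) at 0 nM, below that of p3, and 2774 (n = 3) at 10 nM, where p2 had 2483, and at day 4 it was 1062 and 2528 (n = 3 each). From NMPs to pMN at day 4 Gli1 rose by 1.01 ± 0.0677 (adjusted p = 1.84e-09, limma), just past the fold threshold at 2.02-fold, and the pMN libraries (3192 to 3762) lay above all NMP libraries. From p0-1 to pMN at day 5 it rose by 1.12 ± 0.249 (2.01-fold in mean normalized counts, adjusted p = 0.00273, limma), where p0-1 had 937 to 2424 and pMN 3080 to 3521.

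By day 6 Gli1 +1 kb was lower in p3 than in pMN at the same SAG concentration, short of the fold threshold. At 500 nM the day 6 pMN libraries had 3282 and 2959 and the p3 libraries had 1770 and 1356, with no overlap. The difference was -1.002 ± 0.150 (adjusted p = 0.00736, limma) and the means differed 1.996-fold, just short of a call, which leaving out p3 replicate 2 turned into one. At 100 nM pMN had 3231 and 3200 and p3 had 2092 and 1890, a difference of -0.69 ± 0.104 (adjusted p = 0.00228). At day 4 and 100 nM the same difference was -0.16 ± 0.0989 (adjusted p = 0.297), and the change in it between the days was -0.53 ± 0.140 (adjusted p = 0.0447, limma), which was not called.

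Gli3 elements differed in the types and days at which they were open. The element Gli3 -356 kb (chr13:15107522-15108778, intergenic), the most variable of the gene, was high in dorsal types and low in p3. It was named for the largest excess of p0-1 over pMN and the lowest p3 minus pMN difference at day 6. Its day 6 gaps between these types are therefore in part set by the choice. At day 6 the p0-1 libraries had 731 and 665 normalized counts at 0 nM and 904, 1068 and 1057 at 10 nM. The pMN libraries had 207 and 160 at 100 nM and 94.2 and 75.9 at 500 nM, and the p3 libraries had 14.8 and 10.2, and 2.31 and 3.88. The 3 types did not overlap, and the p2 libraries lay between p0-1 and pMN from 421 to 701, overlapping the lowest p0-1 library. From p0-1 to pMN at day 6 the element fell by 2.68 ± 0.265 on the log2 scale (adjusted p = 6.41e-05, limma), and from p0-1 to p3 by 5.67 ± 0.257 (adjusted p = 1.16e-07), where p3 rests on 9, 10, 2 and 4 reads.

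The difference of Gli3 -356 kb between pMN and p3 stood at the same SAG concentration and from day 4. At day 5 and 100 nM the pMN libraries had 413, 451 and 373 and the p3 libraries 52.0, 52.2 and 66.8, without overlap. The element fell by 2.62 ± 0.148 (adjusted p = 6.15e-06, limma), 7.23-fold, and at 500 nM it fell by 2.77 ± 0.280 (adjusted p = 0.00245). At day 4 it fell by 1.98 ± 0.195 (adjusted p = 0.000121) at 100 nM and by 2.03 ± 0.190 (adjusted p = 0.000519) at 500 nM, the latter lost without pMN replicate 2 (adjusted p = 0.0126). At day 6 its mean was below 100 and it was not tested between these types, except that leaving out either p3 library at 100 nM took the mean past the filter and gave a call (-3.20 and -2.89, adjusted p of 0.00387 and 0.00350). Between p0-1 and p2 at 10 nM it was not called at any day, and at day 6 leaving out p2 replicate 3, which had 701 against up to 485 in the other p2 libraries, gave a call (-1.22, adjusted p = 0.00124).

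Gli3 -356 kb was nearly closed in NMPs, at 9.70, 10.8 and 10.8, and rose by 3.93 ± 0.291 (adjusted p = 3.90e-08, limma) into p0-1 at day 4. In p0-1 it rose again from a mean of 335 ± 126 (SD, n = 6) at day 4 to 885 ± 184 (n = 5) at day 6, by 1.43 ± 0.253 (adjusted p = 0.000355). In pMN the means were 229, 359 and 134 at days 4, 5 and 6, and in p3 they were 48.4, 46.7 and 7.80. Over the 25 condition means of the log2 values its pattern was most like that of elements annotated to Galm (r = 0.988), Cdh23 (0.987), Gm20755 (0.985), Ntm (0.985) and Tmem178 (0.985). This is a description over conditions of the same cell line that differ in depth and in sort gate.

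Gli3 +157 kb and Gli3 +23 kb, both in introns of Gli3, had the same order of types. Gli3 +157 kb (chr13:15620844-15621534) had 180 to 313 in p0-1 at day 6 and 3.46, 5.83, 8.24 and 10.2 in p3, and it fell by 3.91 ± 0.223 from p0-1 to p3 (adjusted p = 3.19e-07, limma). From p0-1 to pMN at day 6 it fell by 1.96 ± 0.219 (adjusted p = 0.000122). Gli3 +23 kb (chr13:15485968-15487929) fell by 2.58 ± 0.351 from p0-1 to p3 at day 6 (adjusted p = 0.000129) and by 1.52 ± 0.336 from p0-1 to pMN (adjusted p = 0.00666). The libraries of the groups compared did not overlap in any of these comparisons. Gli3 -242 kb (chr13:15221260-15222049) had a smaller contrast, 269 ± 25.9 (SD, n = 5) in p0-1 and 109 ± 25.7 (n = 4) in p3 at day 6, a fall of 1.23 ± 0.159 (adjusted p = 8.56e-05, limma). The 3 NMP libraries had 1, 0 and 2 reads there, against means of 144 to 257 normalized counts at day 4, and no fold is given.

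Gli3 +140 kb (chr13:15602159-15604934, intron 3) was most accessible in p3, and at days 5 and 6 the other NP types kept the order of the elements above. At day 4 that order was reversed, with means of 195 in p0-1, 253 in p2 and 334 in pMN. NMPs had 119 to 418, with a mean of 237. The day 6 means of Gli3 +140 kb were 1014 in p3, 215 in p0-1, 151 in p2 and 84.8 in pMN. At day 6 the p3 libraries had 857 and 1106 at 100 nM and 802 and 1291 at 500 nM, and the pMN libraries had 47.5 and 114, and 46.1 and 132. The groups were far apart, and the element rose from pMN to p3 by 3.51 ± 0.358 (12.2-fold, adjusted p = 0.000645, limma) at 100 nM and by 3.49 ± 0.462 (11.8-fold, adjusted p = 0.00588) at 500 nM. Its day 6 pMN means, 80.6 and 89.0, were below 100, so it passed the filter through p3 alone. It was also named for the largest p3 minus pMN difference of Gli3 at day 6. The day 6 gap is therefore in part set by the choice. Leaving out 1 library gave 2.97 to 4.04 at 100 nM and 2.83 to 4.14 at 500 nM, the lowest of the 500 nM values without pMN replicate 2 and the highest without pMN replicate 3. At day 5 it rose by 2.28 ± 0.192 (adjusted p = 2.56e-05) and by 2.13 ± 0.320 (adjusted p = 0.00629). At day 4 the differences were 0.48 (adjusted p = 0.206) and 0.96 (adjusted p = 0.0103) and were not called, though at 500 nM leaving out pMN replicate 3 gave a call (1.14, adjusted p = 0.00176).

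The pMN to p3 difference at Gli3 +140 kb grew between days 4 and 6 at 100 nM by 3.03 ± 0.467 (adjusted p = 0.00621, limma). That call covered 1 of 10 members tested and 1.09% of all elements, and it was lost without replicate 1 (adjusted p = 0.0393) and without replicate 2 (adjusted p = 0.0402). Within pMN the element fell by 1.94 ± 0.251 from day 4 to day 6 (adjusted p = 1.28e-05, limma), while p3 means were 553, 684 and 1014 at days 4, 5 and 6. In p0-1 it stayed between means of 195 and 219, and from p0-1 to p3 at day 6 it rose by 2.28 ± 0.309 (adjusted p = 0.000126). From p0-1 to pMN at day 6 it had -1.22 (adjusted p = 0.0403), and with the replicate block -1.39 (adjusted p = 0.00106, limma), which was a call. The library numbered 3 was the highest of its condition at this element in 23 of the 25 conditions, and the part of that in these results was not tested. At the other members above 100 in some condition it was the highest in 6 (Gli3 -37 kb) to 20 (Gli3 -242 kb) conditions.

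**Figure D2:**
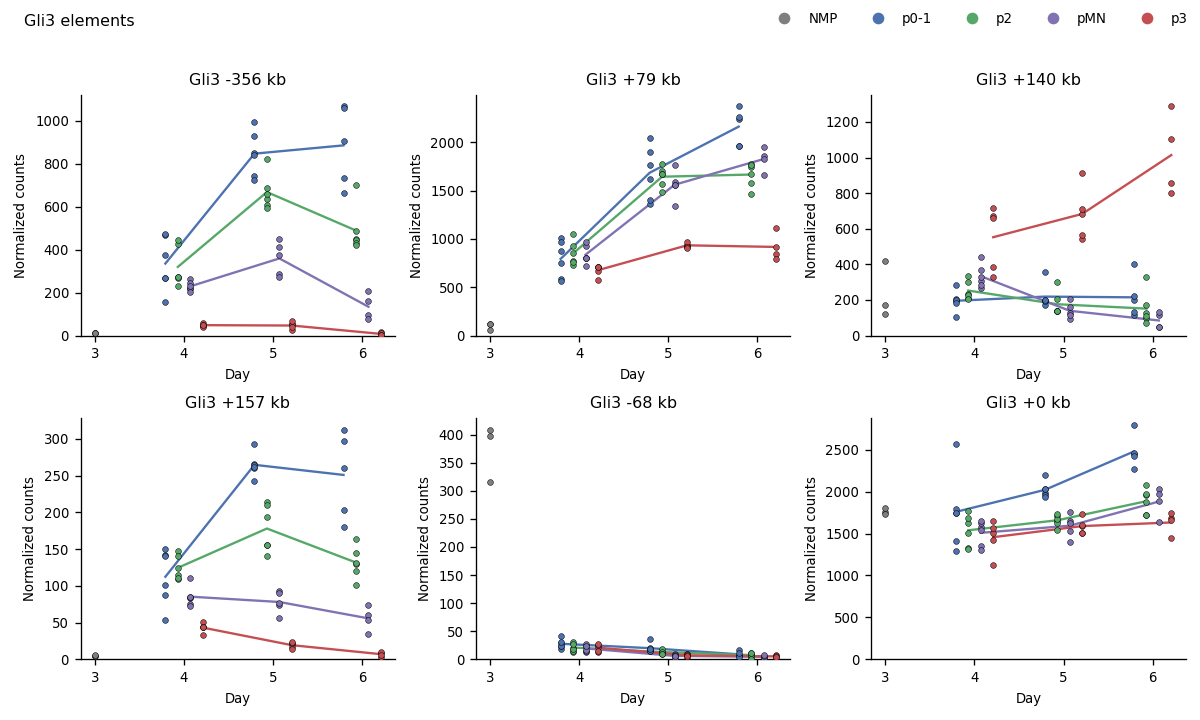
Normalized counts on the y axis by day on the x axis at 6 elements of Gli3 (-356, +79, +140, +157, -68 and +0 kb), with 1 point per library and a line through the mean of each cell type. At -356 kb p0-1 climbed to a mean of 885 at day 6 while p3 stood at 7.80, and at +140 kb p3 reached 1014 while pMN stood at 84.8.

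The widest Gli3 element, Gli3 +79 kb (chr13:15540932-15545187, intron 2), opened in all NP types. It had 121, 56.7 and 124 in NMPs and 566 to 1055 in the day 4 libraries of the NP types, which did not overlap with NMPs. It rose by 2.67 to 2.98 into the 4 types, with adjusted p of 2.07e-07 or less (limma). It rose further from day 4 to day 6 in p0-1, by 1.46 ± 0.158 (adjusted p = 4.12e-06), and in pMN, by 1.12 ± 0.0864 (adjusted p = 6.97e-08). In p3 it stayed lower, at 790 to 1111 at day 6 against 1662 to 1954 in pMN, and fell from pMN to p3 at 500 nM by 1.02 ± 0.139 (adjusted p = 0.00608, limma). At 100 nM the difference was -0.97 (adjusted p = 0.00314), short of 2-fold, and without p3 replicate 2 it was called (-1.16, adjusted p = 0.00404). From p0-1 to p3 at day 6 the element fell by 1.23 ± 0.103 (adjusted p = 3.27e-06).

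The promoter element Gli3 +0 kb (chr13:15462678-15464838) was open throughout, with type means of 1457 to 2479 over days. At day 6 it had 2267 to 2792 in p0-1, 1632 to 2034 in pMN and 1448 to 1740 in p3. The difference from p0-1 to p3 was -0.60 (adjusted p = 6.40e-05, limma) and that from p0-1 to pMN -0.40 (adjusted p = 0.00404), both short of 2-fold. So p0-1 libraries lay above the others without a call.

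Other Gli3 elements were more accessible in NMPs than in NPs. Gli3 -68 kb (chr13:15394980-15395654) had 316 to 409 in NMPs and type means of 19.4 to 27.6 at day 4, and it fell in each of the 4 types, with differences of -3.31 to -3.65 (adjusted p of 2.41e-08 or less, limma). Gli3 -37 kb (chr13:15426441-15427556) fell in all 4 comparisons too, from a mean of 301 to means of 88.1 to 103. Gli3 +161 kb (chr13:15623346-15625260, intron 4) went the other way and rose from 58.5 to means of 477 to 611.

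At Gli2, the element Gli2 +20 kb (chr1:119033468-119034557, intron 1) was highest in pMN. At day 6 the pMN libraries had 1302 and 1788 at 100 nM and 1424 and 1660 at 500 nM, and the p3 libraries had 511 and 665, and 461 and 536. They did not overlap, and the element fell from pMN to p3 by 1.37 ± 0.204 (adjusted p = 0.00216, limma) and by 1.60 ± 0.160 (adjusted p = 0.00382). It fell at 500 nM at day 5, by 1.08 ± 0.137 (adjusted p = 0.00390), and at day 4, by 1.00 ± 0.144 (adjusted p = 0.00206), while at 100 nM on those days -0.94 and -0.76 were short of 2-fold. The day 5 difference at 100 nM passed it without pMN replicate 1 or 2 or without p3 replicate 3, at -0.99 to -1.03 (adjusted p of 0.00185 or less). From p0-1 to pMN it rose by 1.00 ± 0.125 at day 5 (2.00-fold, at the threshold, adjusted p = 3.15e-05) and by 1.38 ± 0.257 at day 6 (adjusted p = 0.00245). NMPs had 170, 95.8 and 93.7, and the element rose 8.90-fold, by 3.07 ± 0.154, into pMN at day 4 (adjusted p = 6.45e-11, limma).

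Gli2 +5 kb (chr1:119047274-119050535, intron 1) shared the pMN to p3 difference at day 6. It had 1515 and 1587 in pMN at 100 nM and 767 and 683 in p3, and fell by 1.09 ± 0.139 (adjusted p = 0.00121, limma). At 500 nM it had 1429 and 1413 in pMN and 677 and 523 in p3, and fell by 1.24 ± 0.167 (adjusted p = 0.00602). The element over the gene start, Gli2 +0 kb (chr1:119051974-119054383), had type means of 980 to 1570 and differences of -0.46 (adjusted p = 0.0292) and -0.52 (adjusted p = 0.0300) in the same comparisons, not called.

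The calls at day 6 and 500 nM rest on 2 libraries a group. Gli2 +20 kb, Gli2 +5 kb, Gli3 +79 kb and Gli3 +140 kb each lost that call without pMN replicate 2 or 3, with adjusted p of up to 0.0608, 0.0669, 0.0650 and 0.0608, Gli3 +79 kb also without p3 replicate 3, and voom called 0 of the 4. Gli2 +20 kb lost its call at 100 nM without p3 replicate 2 (adjusted p = 0.0105) and its day 4 call without pMN replicate 1 or 2 (adjusted p of up to 0.0212, limma).

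Gli2 -164 kb (chr1:119217454-119218373) and Gli2 -57 kb (chr1:119110006-119110683), both intergenic, were highest in p3, at low levels that kept them out of the tests between pMN and p3. At day 6 Gli2 -164 kb had 77.5, 187, 86.6 and 230 in p3 and 3.59 to 17.5 in pMN. Gli2 -57 kb had 79.1, 163, 91.2 and 181 in p3 and 8.96 to 25.7 in pMN. Gli2 -164 kb was named as the Gli2 element with the largest p3 minus pMN difference at day 6. Both elements exceeded a mean of 100 normalized counts only in p3 conditions. Their gap between these types is therefore in part set by the choice, and it was not tested. The pattern of Gli2 -57 kb over condition means was most like that of elements annotated to Ccdc6 (r = 0.981), Fndc3b (0.968), Mtss1 (0.967), Znrf3 (0.964) and Caap1 (0.961). The 5 most like Gli1 +1 kb were annotated to BC034090 (0.892), Sdc3 (0.862), Gm39653 (0.828), Tmem53 (0.827) and Gm51425 (0.818).

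Gli2 +48 kb and Gli2 -67 kb fell after the NMP stage. Gli2 +48 kb (chr1:119003848-119006460, intron 1) had 288, 312 and 319 in NMPs and type means of 73.1 to 89.6 at day 4, and it fell by 1.66 to 1.91 (adjusted p of 2.69e-06 or less, limma). Gli2 -67 kb (chr1:119119771-119120532) had 230 to 272 in NMPs and fell by 1.54 to 2.15, and Gli2 -30 kb fell into p3 by 1.06 ± 0.165 (adjusted p = 1.76e-05).

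The annotation gives elements inside a gene to the nearest gene start, so 21 elements within Gli1, Gli2 and Gli3 carried another gene's name: 13 inside Gli2 were given to Mir6346, 7 inside Gli3 to 4933412O06Rik and 1 inside Gli1 to Arhgap9. They are not members, were added after the annotation had been seen, and 10 of them exceeded 100 normalized counts in some condition. Gli2 body +140 kb (chr1:118913611-118914355, intron 2) and Gli2 body +142 kb (chr1:118910672-118912466, intron 2) lie next to each other and differed in opposite directions between pMN and p3. At day 6 Gli2 body +140 kb had 660, 1217, 644 and 1390 in p3, 34.1 to 127 in pMN and 17.7 to 43.6 in p0-1. Its day 6 pMN means, 60.4 at 100 nM and 80.7 at 500 nM, were below 100, so it passed the filter through p3 alone. It rose from pMN to p3 by 3.67 ± 0.343 at 100 nM (adjusted p = 0.000515, limma) and by 3.58 ± 0.585 at 500 nM (adjusted p = 0.00917), where leaving out 1 library gave 2.78 (without pMN replicate 2) to 4.38 (without pMN replicate 3). It was called in 5 of the 6 pMN to p3 comparisons, of which the day 4 calls were lost without replicate 1 of pMN or p3 at 100 nM and without pMN replicate 2 at 500 nM (adjusted p of up to 0.0592 and 0.0138). The comparison without a call, day 5 at 500 nM, gained one without pMN replicate 3 or without either p3 library. The library numbered 3 was the highest of its condition at Gli2 body +140 kb in 22 of the 25 conditions. Over the 10 elements it was so in 4 (Gli3 body +251 kb) to 23 (Gli2 body +137 kb and +71 kb). Gli2 body +142 kb had 279, 244, 152 and 110 in p3 and 1217 to 1429 in pMN, and fell by 2.38 ± 0.166 (adjusted p = 0.000374) and by 3.15 ± 0.218 (adjusted p = 0.00245). The change in its difference from day 4 to day 6 was -1.52 ± 0.154 (adjusted p = 0.00229, limma). The 500 nM calls of both were lost without pMN replicate 2 or 3 (adjusted p of up to 0.0682 and 0.0608).

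Gli3 body +251 kb (chr13:15714258-15715411, intron 11) opened late. Its NMP libraries had 27.0 to 32.3, its p0-1 libraries 20.6 to 52.7 at day 4 and 904 to 1225 at day 6. The day 4 and day 6 libraries of p0-1 did not overlap, and it rose by 4.56 ± 0.189 in p0-1 from day 4 to day 6 (adjusted p = 9.12e-10, limma). In p3 it had 72.8 to 279 at day 6, and from pMN to p3 it fell by 2.22 ± 0.298 (adjusted p = 0.00142) at 100 nM and fell by 2.77 ± 0.351 (adjusted p = 0.00541) at 500 nM. The first call was lost without pMN replicate 2 (adjusted p = 0.0136) and the other without pMN replicate 2 or 3 (adjusted p of up to 0.0751).

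**Figure D3:**
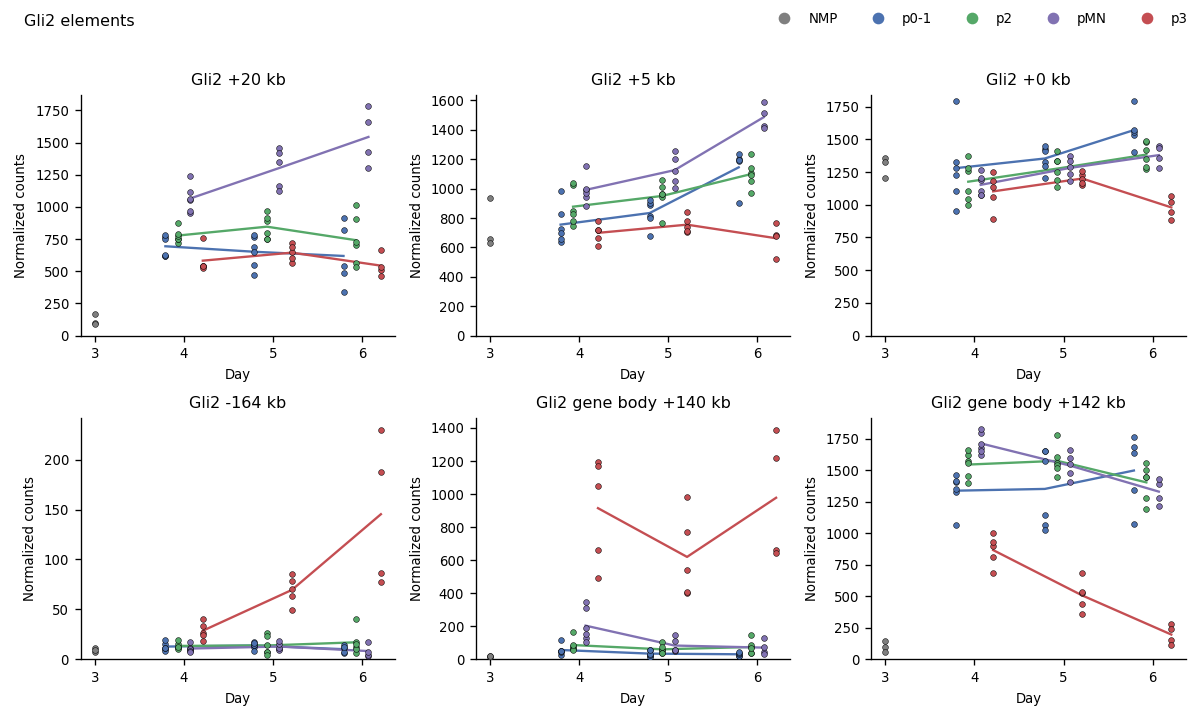
Normalized counts on the y axis by day on the x axis at 4 Gli2 elements (+20, +5, +0 and -164 kb) and the 2 elements inside the gene at +140 and +142 kb, with 1 point per library and a line through the mean of each cell type. At +20 kb pMN reached a mean of 1543 at day 6 and p3 stood at 543, and at +140 kb inside the gene p3 stood at 978 and pMN at 70.5.

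**Figure D4:**
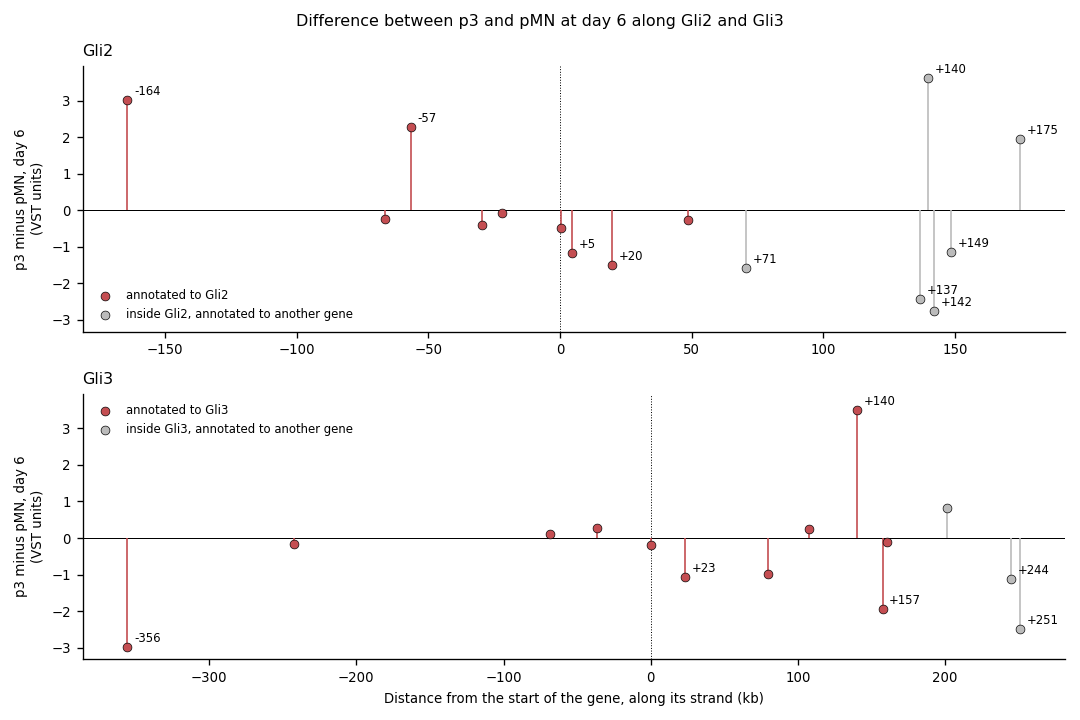
Distance of each element from its gene start in kb on the x axis and the difference of p3 minus pMN at day 6 in variance-stabilized log2 values on the y axis, averaged over both SAG concentrations. Red points are elements annotated to the gene and grey points lie inside it but are annotated to another gene, and positive and negative differences stand at neighbouring positions in Gli2 and Gli3.

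Counted by comparison, the members called between pMN and p3 at the same SAG concentration were 1 of 10 at day 4 and 100 nM, where 5.91% of all elements were called, and 2 of 11 at 500 nM (6.71%). They were 2 of 10 (20%) and 3 of 10 (8.51%) at day 5, and 3 of 9 (17.6%) and 4 of 9 (8.59%) at day 6. Their median differences at day 6 were -0.46 and -0.52, against -0.03 and 0.04 over all elements tested. At day 5 and 100 nM the share of members equalled that of all elements, and the other shares rest on 1 to 4 members.

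Between p0-1 and p2 at 10 nM, 0 of 12, 12 and 13 members were called at days 4, 5 and 6, against 0%, 0.0124% and 6.03% of all elements. An unadjusted p below 0.05 came in 1, 6 and 7 members. Over all elements it came in 2295 of 29490, 7713 of 32213 and 9032 of 32167. Between p2 and pMN at 100 nM, 0 of 12 were called on each day, against 0%, 1.61% and 0%. Here 2, 6 and 4 members had an unadjusted p below 0.05. Over all elements 2125 of 29768, 6579 of 31888 and 4270 of 32573 did. By voom 0 members were called in these 6 comparisons. With the replicate block, whose pairing held in 5 of the 6, the elements called between p0-1 and p2 were 776, 1498 and 2423 in place of 0, 4 and 1941, with no member among them, and those between p2 and pMN at days 4 and 5 were 82 and 873 in place of 0 and 512.

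From p0-1 to pMN, 0 of 12, 5 of 12 and 5 of 13 members were called at days 4, 5 and 6, against 3.9%, 11.3% and 12.4% of all elements. The 0 at day 4 came with 6 members at an unadjusted p below 0.05, against 7093 of all 29762 elements tested, and voom called 0 members. From p0-1 to p3 they were 3, 4 and 6 of 12, against 6.57%, 18.7% and 23.8%. Of the 6 at day 6, 5 fell and 1, Gli3 +140 kb, rose, and all 6 are Gli3 elements. The member median at day 6 from p0-1 to p3 was -0.73, against -0.08 over all elements.

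From NMPs into day 4 NPs the members called were 9 of 16 in p0-1 (41.6% of all elements), 9 of 16 in p2 (48.1%), 10 of 15 in pMN (48.5%) and 9 of 13 in p3 (44.8%). In p0-1, p2, pMN and p3 in turn, 5, 5, 6 and 4 rose and 4, 4, 4 and 5 fell. The member medians were -0.04, 0.25, 0.43 and -0.24, against -0.40, -0.49, -0.47 and -0.45 over all elements. From day 4 to day 6, 3 of 13 members rose in p0-1 (21.8%), 1 rose and 1 fell of 11 in pMN (25.1%), 0 of 12 were called in p2 (25%) and 0 of 9 in p3 (24.1%). In p2 and p3, 8 and 3 members had an unadjusted p below 0.05 and voom called 0. Over all elements tested, 23376 of 31614 and 19329 of 31266 had an unadjusted p below 0.05 there.

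**Figure D5:**
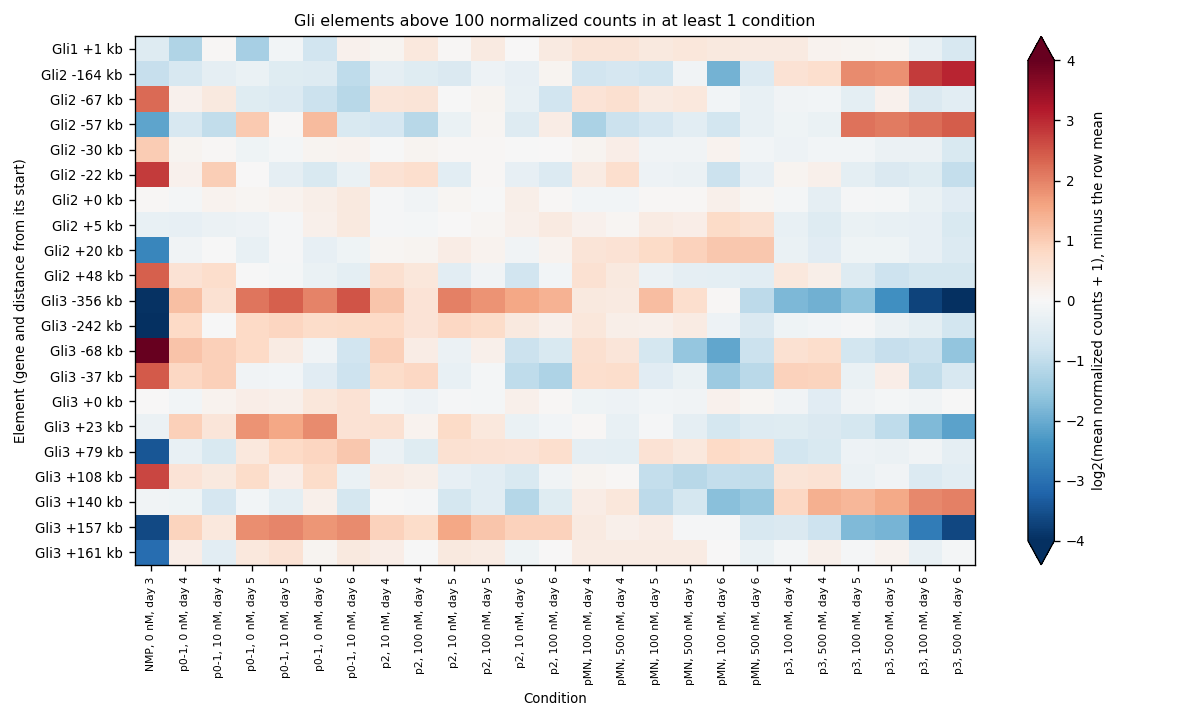
The 21 members above 100 normalized counts in some condition as rows and the 25 conditions as columns, coloured by log2 of the mean normalized count plus 1 minus the row mean, with the scale clipped at 4 either way. Gli3 -356 kb runs from high in p0-1 to low in p3, Gli3 +140 kb is highest in p3, and Gli3 -68 kb and Gli2 +48 kb are highest in NMPs.

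Other genes of the pathway were given by a list of 15: receptors and co-receptors (Ptch1, Gas1, Cdon, Boc), the ligand-binding inhibitor Hhip, Smo, Disp1, which releases ligand, and regulators of the GLI proteins or of the cilium (Sufu, Kif7, Gpr161, Spop, Prkaca, Stk36, Evc, Evc2). They had 94 elements. In the 12 SAG comparisons 0 of 39 to 47 tested were called, with 0 to 16 at an unadjusted p below 0.05, the highest in p0-1 at day 5. There it came in 16 of 39 pathway elements and in 4741 of all 31401 elements tested. From NMPs to pMN 20 of 42 rose and 5 fell, where 48.5% of all elements were called (6704 rose and 8601 fell), with 10 of the 20 annotated to Ptch1, the Hedgehog receptor and a target of the pathway. From NMPs to p0-1, p2 and p3, 11 of 36, 14 of 37 and 16 of 39 rose and 3, 5 and 5 fell. Of all elements 41.6%, 48.1% and 44.8% were called there. Ptch1 elements that rose were 2 in p0-1, 6 in p2 and 9 in p3. From pMN to p3 at day 6, 4 of 45 rose and 5 fell at 100 nM (17.6% of all elements called), and 4 of 43 rose and 4 fell at 500 nM (8.59%).

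Of the pathway elements called between pMN and p3 at day 6, those of Hhip went in both directions, 1 up and 1 down at either SAG concentration. Hhip +20 kb had means of 636 in pMN and 44.0 in p3 at 100 nM and fell by 3.51 ± 0.277 (adjusted p = 0.000406, limma), while Hhip -196 kb had 3.67 and 228 and rose by 4.15 ± 0.370 (adjusted p = 0.000470). At 100 nM 3 Disp1 elements rose and 1 fell, and at 500 nM 3 rose and 0 fell: Disp1 -7 kb rose from 23.9 to 408 at 100 nM, and Disp1 +80 kb fell from 159 to 41.3. Each of these Hhip and Disp1 elements was below 100 in 1 type at 100 nM. They passed the filter only through the type where they were high, so their gaps are in part set by it. Gas1, Ptch1 and Sufu had 1 called element each, which fell at both concentrations. At 100 nM Gas1 +30 kb fell from 1019 to 290 and Ptch1 +12 kb fell from 2472 to 1199, by 1.04 ± 0.139 (adjusted p = 0.00138, limma), and Sufu +47 kb fell from 1017 to 482.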

How the data were processed

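ATAC-seq was measured in 67 libraries of sorted mouse NMPs and NPs. The authors aligned reads to mm10, called peaks with MACS, merged them into consensus elements, counted reads per element, and deposited log2 values made by the variance-stabilizing transformation of DESeq2 after division by its size factors. The element annotation was deposited by the authors too, with positions and nearest gene starts. Genome positions of the genes and the sequences were read from GRCm38 with the GENCODE M21 annotation.

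From the log2 values the transformation was inverted to normalized counts and whole reads, and 100% of the values under 1000 reads came out whole within 0.001. Size factors were 0.495 to 1.50. Tests used limma 3.58.1 (R 4.3.3) on the log2 values of the groups compared, with a variance trend, two-sided and Benjamini-Hochberg adjusted over every element whose mean over those libraries exceeded 100 normalized counts. Interaction tests had no fold threshold. No count model was the main test, and voom on the recovered reads was an alternative. The scripts were tested on simulated data. Tables and figures used Python 3.11.15, pandas 2.3.3, numpy 2.4.6 and matplotlib 3.10.9.

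Members are the elements annotated to the 3 genes. Members, gene lists and rules were chosen with earlier results of these data known. Some genes of these lists are not reported here, and the list values were computed without them. Elements are named by being nearest the start, the 2 highest, called with SAG, or the extremes of change from NMPs. They are also named by the extremes of p3 minus pMN at day 6, or the largest excess of p0-1 over pMN at day 6. Others that are named were chosen after their values were seen. Likeness of patterns used the most variable element of each gene. The p3 minus pMN rule named Gli2 -164 kb, Gli2 +20 kb, Gli3 -356 kb and Gli3 +140 kb. The p0-1 rule named Gli2 -57 kb and Gli3 -356 kb. Those day 6 differences are in part set by the choice. Groups and replicate numbers came from the sample titles, and 15 libraries carry another number in their description. Replicate numbers were taken to pair libraries where a comparison had 3 or more same-numbered pairs and each correlated above 0.1 in its deviations from the condition means, which held in 18 of 38 comparisons, 6 of them SAG comparisons. The median over comparisons was 0.596 for same and -0.350 for other numbers. Types were sorted from shared dishes at each SAG concentration, but whether a number marks a dish is not given in the sources used here.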

Additional observations from a re-analysis of the deposited data

Results flagged for a closer look

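Gaps between 1 library and the rest were examined in 228 groups of 4 to 6 libraries of a cell type and day (pooled over SAG), at 19 elements, with Dixon's test, which chance passes in about 5% of groups. It marked 15 libraries. Replicate 3 stood above the others at Gli2 -164 kb in p2 at day 6 (40.3 normalized counts, others up to 17.0), at Gli2 -67 kb in p2 at day 5 (72.1, others up to 54.0) and at Gli2 -57 kb in p2 at day 6 (59.8, others up to 28.3), each at 100 nM SAG. At Gli3, replicate 3 stood above the others at -356 kb in p2 at day 6 and 10 nM (701, others up to 485), at -242 kb in p2 at day 5 and 10 nM (359, others up to 271), and at +157 kb in pMN at day 4 and 100 nM (110.5, others up to 84.8). It also did so at -68 kb and at +140 kb in p0-1 at day 5 without SAG (35.8, others up to 19.6, and 359, others up to 199), and it stood below the others at -37 kb in pMN at day 5 and 100 nM (29.3, others from 42.4).

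Replicate 2 stood above the others at Gli2 -30 kb in pMN at day 6 and 100 nM (124, others up to 93.4), at Gli3 +0 kb in p0-1 at day 5 without SAG (2196, others up to 2030) and at Gli3 +23 kb in pMN at day 6 and 500 nM (74.2, others up to 57.4), and below them at Gli2 +5 kb in p0-1 at day 6 without SAG (903, others from 1191). Replicate 1 stood above the others at Gli2 +20 kb in p3 at day 4 and 100 nM (759, others up to 542), and below them at Gli2 +48 kb in p3 at day 4 and 500 nM (53.7, others from 75.8). Of the 15, 9 are libraries numbered 3, and why was not tested.

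The difference between pMN and p3 at Gli3 +140 kb changed between days 4 and 6 at 100 nM, by 3.03 on the log2 scale (interaction term, adjusted p = 0.00621, limma). It was larger at day 6 at both SAG concentrations, and the interaction at 500 nM was not tested.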

How the results depend on the processing

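The members called in at least 1 comparison, each counted once, were 1 with SAG, 5 between types at the same SAG, 8 between p0-1 and pMN or p3, 13 between days, 1 in the p3 and pMN interaction and 0 in the SAG interaction. With no filter on the mean they were 1, 15, 26, 44, 4 and 0, and with an absolute log2 fold change above 2 they were 0, 2, 4 and 8 in the comparisons of 2 groups. The SAG count was 0 after centring, without the variance trend and with voom, and 2 in 1 fit over all samples. The interaction count was 0 without the trend and with voom. Leaving out a replicate number gave 0 to 2, 3 to 6, 5 to 8, 12 to 13, 0 to 1 and 0. Over 158 called results at single elements, members and elements inside the genes, and 1740 alternative values, 0 reversed in direction.

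With the replicate block the SAG count was 3 by either numbering. Beside Gli1 in p0-1 at days 4 and 5, the block added Gli3 +23 kb in p0-1 at day 6 (-1.18, adjusted p = 3.93e-14, limma) and Gli3 -356 kb in pMN at day 6 (-1.00242, adjusted p = 0.00107). From p2 to pMN at day 6 it added Gli3 -356 kb (-1.30, adjusted p = 0.00353) and Gli3 +140 kb (-1.34, adjusted p = 0.00681). In these 4 cases 2 pairs share a number. It changed no other member's call apart from those given beside the results.

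Leaving out single libraries gave 212 values, of which 43 lost the call. In comparisons with no call, 16 such fits gained one, 9 of them at members, which are given beside the results. Where 1 library was left in a group, it was assumed to vary like the other group. Leaving out replicate 2 or 3 left no degree of freedom in the day 6 SAG comparisons of pMN and p3 and in the pMN to p3 comparisons at day 5 and 500 nM and at day 6, which were not run. The filter on the mean left members under 100 normalized counts out of the tests.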
